A study of Homo sapiens with 4 samples.

Results

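The genes that write, maintain and remove DNA methylation were followed through 4 cell populations on the way from a pluripotent human cell to a blood progenitor. The genes were picked by symbol from the deposited table of 58274 genes: DNMT1, DNMT3A, DNMT3B, DNMT3L, UHRF1, UHRF2, TET1, TET2, TET3 and TDG. Each of the 10 symbols matched 1 gene on 1 row. The clearest differences were a 6.52-fold fall of DNMT3B and an exchange of TET1 for TET2, while DNMT1 and UHRF1 ended close to where they began and DNMT3L was listed at 0 in all 4 libraries.

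The populations all came from BC1, an established induced pluripotent cell line of human origin, and the labels name no genetic change between them. The first library was from undifferentiated BC1 cells. The others were made from cells taken during differentiation with activin A and BMP4 and then with VEGF and bFGF: APLNR+ cells at day 2 (mesoderm, marked by the apelin receptor), CD31+CD34+ cells at day 5 (hemogenic endothelial progenitors, HEPs) and CD43+ cells at day 8 (hematopoietic progenitor cells, HPCs). Each population had 1 library of total RNA, so differences have no replicate check, no test between populations was possible and no p-value is given. Values are FPKM, fragment counts divided by transcript length in kilobases and by the mapped fragments of the library (per 1000000). The intervals in brackets are 95% intervals for counting error alone and leave out the variation between cultures, sorts and libraries.

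DNA methylation places a methyl group on cytosine, mostly where it is followed by guanine (CpG). DNMT3A and DNMT3B set the mark on unmethylated DNA, with DNMT3L as a partner that has no catalytic activity of its own. DNMT1 copies the mark to the new strand after replication, brought there by UHRF1, which recognises DNA methylated on a single strand. The TET enzymes oxidise the methyl group, and TDG cuts out the oxidised bases so that repair can restore plain cytosine. Pluripotent cells are known for high DNMT3B and TET1, and blood cells for their use of DNMT3A and TET2, which are often mutated in blood malignancies.

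The depth, read from the steps between low values, was between 19700000 and 23600000 mapped fragments, and between 13554 and 14335 genes had at least 1 FPKM. The genes of the sorting markers checked the labels: APLNR went from 0.782 to 1073 FPKM in the APLNR+ library, CD34 and PECAM1 (CD31) were at 102 and 93.1 FPKM in the HEPs, and SPN (CD43) reached 92.4 FPKM in the HPCs. The pluripotency factor POU5F1 was at 1997, 573, 1.87 and 0.235 FPKM in the order of differentiation, so the APLNR+ library still held much of its transcript. In bulk RNA, fewer cells that express a gene and less of its RNA per cell cannot be told apart.

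The start regions of 4 members are shown because these members either moved most (DNMT3B, TET1, TET2) or belong to the steady maintenance pair (UHRF1). Each is the first window that the RefSeq table on GRCh38 lists for the gene, from 250 bases before to 50 bases after an annotated start, written 5′ to 3′ on the strand of the gene, with every CpG, the site that these enzymes act on, in capitals.
DNMT3B, chr20:32779602-32779901, plus strand: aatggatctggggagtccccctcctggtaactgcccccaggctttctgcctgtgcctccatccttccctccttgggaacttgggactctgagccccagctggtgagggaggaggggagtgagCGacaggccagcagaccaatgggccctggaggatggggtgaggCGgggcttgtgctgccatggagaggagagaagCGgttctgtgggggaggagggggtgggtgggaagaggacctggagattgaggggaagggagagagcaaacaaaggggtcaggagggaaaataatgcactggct
TET1, chr10:68560087-68560386, plus strand: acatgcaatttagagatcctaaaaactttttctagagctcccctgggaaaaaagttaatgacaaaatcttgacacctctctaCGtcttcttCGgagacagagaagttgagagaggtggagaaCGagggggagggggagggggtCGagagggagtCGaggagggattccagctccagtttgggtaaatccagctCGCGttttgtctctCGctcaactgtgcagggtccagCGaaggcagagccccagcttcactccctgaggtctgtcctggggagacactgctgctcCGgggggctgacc
TET2, chr4:105145625-105145924, plus strand: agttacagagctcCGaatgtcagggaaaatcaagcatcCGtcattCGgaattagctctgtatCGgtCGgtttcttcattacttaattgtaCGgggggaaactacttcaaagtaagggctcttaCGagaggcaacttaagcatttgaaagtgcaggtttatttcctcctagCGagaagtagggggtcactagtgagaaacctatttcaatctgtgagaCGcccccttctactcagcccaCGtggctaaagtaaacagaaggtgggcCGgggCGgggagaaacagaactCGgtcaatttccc
UHRF1, chr19:4909251-4909550, plus strand: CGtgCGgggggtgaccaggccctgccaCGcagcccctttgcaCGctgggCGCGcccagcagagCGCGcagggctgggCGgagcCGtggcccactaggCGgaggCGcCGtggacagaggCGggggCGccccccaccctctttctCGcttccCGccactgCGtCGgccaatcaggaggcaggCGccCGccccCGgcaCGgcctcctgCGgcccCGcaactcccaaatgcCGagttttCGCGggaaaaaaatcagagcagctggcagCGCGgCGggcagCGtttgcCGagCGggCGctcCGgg

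These windows differed in CpG content. They held 3 CpGs for DNMT3B, 10 for TET1, 13 for TET2 and 36 for UHRF1, against a median of 14 over the 35114 full-length windows of the table and of 24 over the windows of genes that passed the expression filter. The choice of start matters here. The annotated start in the DNMT3B window lies 17467 bases inside the gene as GENCODE places it, and that in the UHRF1 window lies 6421 bases inside. The other UHRF1 windows hold 40 and 46 CpGs. The next TET2 window, whose start is 1001 bases downstream, holds 35 CpGs. The table had 20 windows for 9 of the 10 genes. Letter strings of the E2F type were searched, namely TTGGCGC with its variant TTGGCGG, as well as TTCCCGC with its variant TTCCCGG, on both strands, and matches to different strings can overlap in part. At least 1 of them was in 6 of the 20 windows (UHRF1, UHRF2, TET3, TDG and 2 of TET1), while 24.7% of the windows of genes that passed the filter held one. The 2 TET1 windows overlap and share the same match, which was therefore counted in both. The FPKM values are per gene and do not separate the starts, and methylation itself was not measured.

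The writers of new methylation were led by DNMT3B (ENSG00000088305.18, chromosome 20, 32762385 to 32809356, plus strand). DNMT3B was at 513 FPKM in BC1 (508 to 518), 124 FPKM in the APLNR+ cells (122 to 127), 74.0 FPKM in the HEPs (72.3 to 75.8) and 78.7 FPKM in the HPCs (76.8 to 80.6). BC1 stood apart from the other libraries, and the 4 intervals did not overlap. Among protein-coding genes DNMT3B had rank 152 in BC1 and rank 1313 in CD31+CD34+. It fell 4.13-fold from BC1 to APLNR+ (4.04 to 4.22), and the later differences were 1.68-fold downward (1.63 to 1.73) and 1.06-fold upward (1.03 to 1.10), the last of which turned to -0.03 on the log2(FPKM + 1) scale when libraries were scaled to the same total. Genes of the pluripotent state were set beside it. In the HPCs, SOX2 was listed at 0 and NANOG and POU5F1 were at 0.00945 and 0.235 FPKM, but other genes of the same list, chosen after their values were seen, kept higher levels there, such as LIN28A (92.9 FPKM) and SALL4 (18.9 FPKM). Of the 14 genes of the list, 10 fell by at least 1 on the log2(FPKM + 1) scale and 0 rose from BC1 to APLNR+. At the second step 6 fell, and at the third 3. Of all genes with at least 1 FPKM in some library, 9.32%, 11.4% and 13.5% fell at these steps, and 9.15% rose at the first. The summed level of the list, much of it POU5F1, was 3936, 1309, 196 and 160 FPKM, and 0, 0, 3 and 4 of its genes were at 0. The part of these genes in the fall of DNMT3B was not tested.

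DNMT3A (ENSG00000119772.16, chromosome 2, 25227855 to 25342590, minus strand) was far less variable. It was at 80.2 FPKM in BC1, 41.2 FPKM in the APLNR+ cells, 48.0 FPKM in the HEPs and 44.4 FPKM in the HPCs. BC1 was again the highest library, and the 3 differentiated populations lay within a narrow band. The difference from BC1 to APLNR+ was 1.95-fold downward (1.86 to 2.04), which is -0.95 on the log2(FPKM + 1) scale and just short of the size of 1 used as a call here. The share of DNMT3B in their summed FPKM went from 86.5% in BC1 (86.1 to 86.8) to 75.1% in APLNR+ (74.3 to 75.9), 60.7% in CD31+CD34+ (59.7 to 61.6) and 63.9% in CD43+ (62.9 to 64.9). DNMT3B thus remained the more abundant of the 2 transcripts in each library.

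DNMT3L (ENSG00000142182.8, chromosome 21, 44246339 to 44262216, minus strand) was listed at 0 in all 4 libraries. The limit used for a count of 0, which is 3 fragments, was 0.164 FPKM in BC1, 0.151 FPKM in the APLNR+ cells, 0.140 FPKM in the HEPs and 0.154 FPKM in the HPCs. The antisense gene AP001059.1, which overlaps DNMT3L, was listed at 0 as well.

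**Figure D1:**
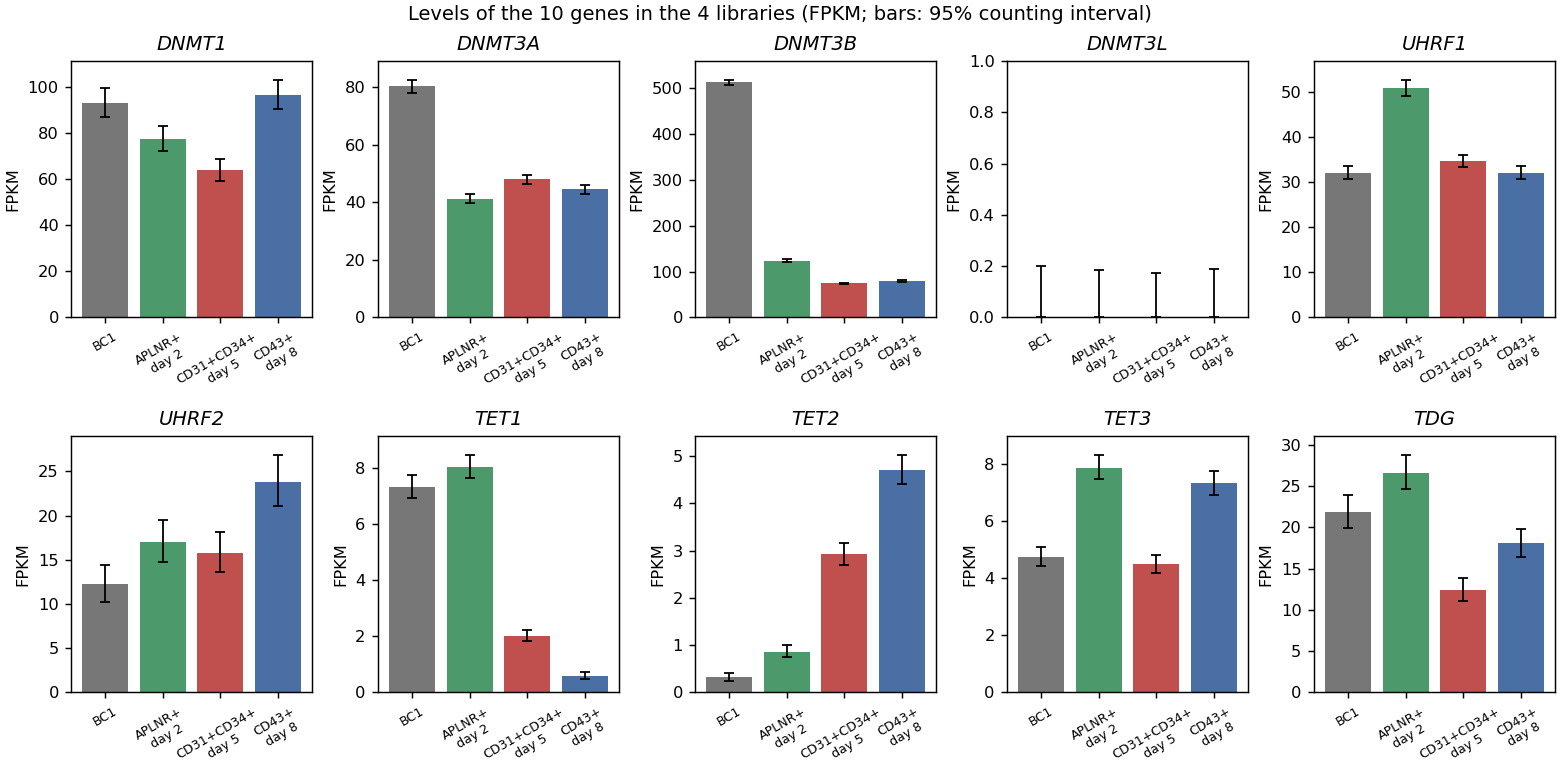
FPKM of the 10 genes in the 4 libraries, each panel with its own vertical axis from 0, with bars for the 95% counting interval and 1 library per bar. DNMT3B stands at 513 FPKM in BC1 and under 125 FPKM afterwards, TET1 goes down after APLNR+ and TET2 goes up at each step. The DNMT3L panel shows only the upper limits that no fragments allow.

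Among the maintenance genes, DNMT1 and UHRF1 ended close to their BC1 levels. DNMT1 (ENSG00000130816.14, chromosome 19, 10133345 to 10231286, minus strand) was at 92.9 FPKM in BC1 (86.9 to 99.3), 77.4 FPKM in the APLNR+ cells (72.1 to 83.0), 63.8 FPKM in the HEPs (59.1 to 68.7) and 96.6 FPKM in the HPCs (90.5 to 103). It was lowest in the endothelial library. With the median transcript length, its first and last libraries could not be told apart by counting, at a ratio of 1.04 (0.947 to 1.14). This rests on the short median length. With the longest length, the intervals of BC1 (91.0 to 94.8) and CD43+ (94.7 to 98.4) overlapped only slightly. From CD31+CD34+ to CD43+ it was 1.51-fold higher (1.37 to 1.67). S1PR2, a receptor gene that overlaps DNMT1 on the same strand, was at 3.82 FPKM or less in every library.

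UHRF1 (ENSG00000276043.4, chromosome 19, 4903080 to 4962154, plus strand) had another profile than its partner. It was at 32.0 FPKM in BC1, 50.7 FPKM in the APLNR+ cells, 34.6 FPKM in the HEPs and 32.0 FPKM in the HPCs. The APLNR+ library was the high one, 1.58-fold above BC1 (1.497 to 1.68), and the ratio of CD43+ to BC1 was 0.9996 (0.938 to 1.06). The ratio of UHRF1 to DNMT1 was 0.345 in BC1 (0.318 to 0.374), 0.656 in APLNR+ (0.606 to 0.709), 0.542 in CD31+CD34+ (0.498 to 0.591) and 0.332 in CD43+ (0.307 to 0.358). It was thus higher in the 2 intermediate populations than at either end.

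UHRF2 (ENSG00000147854.16, chromosome 9, 6413151 to 6507054, plus strand), the paralog of UHRF1, was at 12.2 FPKM in BC1 (10.2 to 14.5), 17.0 FPKM in the APLNR+ cells (14.7 to 19.5), 15.7 FPKM in the HEPs (13.6 to 18.1) and 23.8 FPKM in the HPCs (21.0 to 26.8). CD43+ was the highest library and BC1 the lowest, while the interval of CD31+CD34+ overlapped those of both APLNR+ and BC1. The overlap with BC1 rests on the short median transcript length. With the longest length, CD31+CD34+ (14.8 to 16.6) and BC1 (11.4 to 13.1) were apart. From BC1 to CD43+ it was 1.95-fold higher (1.58 to 2.43), or 0.91 on the log2(FPKM + 1) scale, which is just under the call. UHRF1 made up 72.4% of the summed FPKM of the pair in BC1 (68.7 to 76.0) and 57.3% in CD43+ (54.2 to 60.5).

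Because DNMT1 and UHRF1 act at the replication fork, genes of replication were set beside them. PCNA, the sliding clamp, was at 179, 115, 113 and 177 FPKM in the order of differentiation. MCM2, a subunit of the replicative helicase, was at 107, 93.3, 63.1 and 105 FPKM. Like DNMT1, both were highest in BC1 and CD43+ and lowest in CD31+CD34+. The ratio of DNMT1 to MCM2 stayed between 0.830 and 1.01 and that to PCNA between 0.519 and 0.673. UHRF1 did not keep such a ratio, with 0.179, 0.441, 0.307 and 0.180 to PCNA. MKI67, a marker of cycling cells, peaked where DNMT1 was lowest, at 13.3, 19.5, 40.2 and 15.0 FPKM. The whole proliferation list of 27 genes summed to 1941, 1715, 1493 and 1591 FPKM with none at 0, and its part in the levels of DNMT1 and UHRF1 was not tested.

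**Figure D2:**
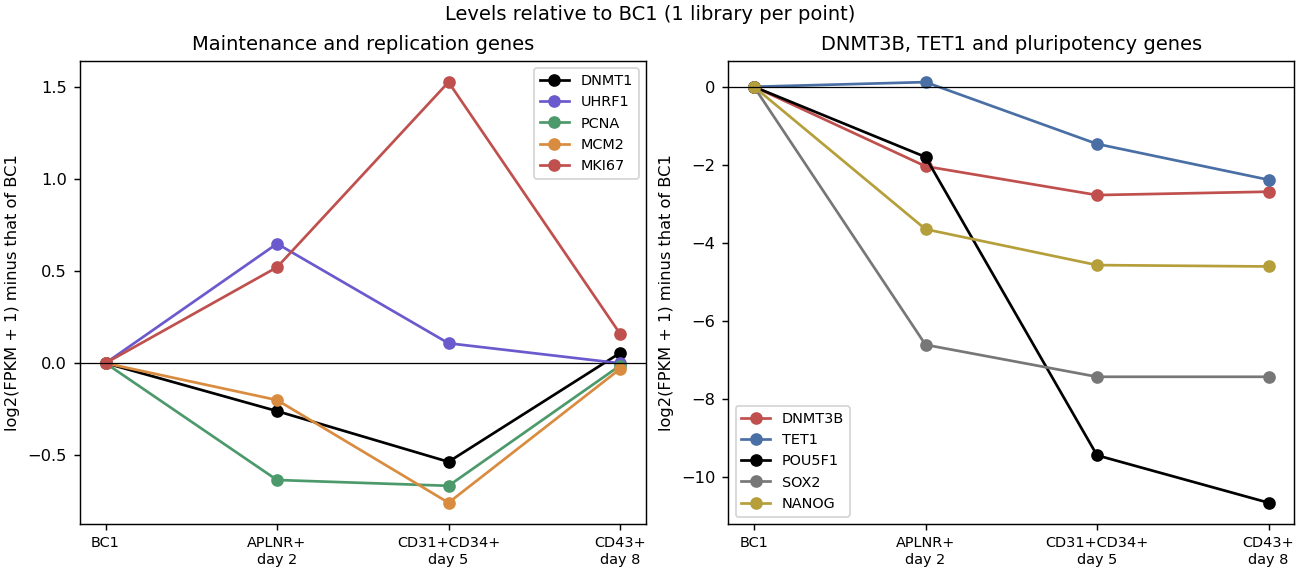
log2(FPKM + 1) minus its value in BC1, by library and with 1 library per point, for the maintenance and replication genes (left) and for DNMT3B and TET1 beside pluripotency genes (right). Among the genes drawn, DNMT1 runs with PCNA and MCM2 and not with MKI67, and DNMT3B levels off at -2.69 in CD43+ while POU5F1 reaches -10.66.

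The TET genes changed in composition from BC1 to CD43+, while their summed FPKM was nearly equal in these libraries and differed in between. TET1 (ENSG00000138336.8, chromosome 10, 68560656 to 68694482, plus strand), the TET gene of pluripotent cells, was at 7.33 FPKM in BC1 (6.94 to 7.74), 8.05 FPKM in the APLNR+ cells (7.65 to 8.46), 2.02 FPKM in the HEPs (1.83 to 2.22) and 0.596 FPKM in the HPCs (0.495 to 0.718). BC1 and APLNR+ were close, at a ratio of 1.10 (1.02 to 1.18), and both later libraries were lower. TET1 fell 3.99-fold from APLNR+ to CD31+CD34+ (3.58 to 4.45), and the next difference was 3.38-fold downward (2.74 to 4.17). Over the whole path it fell 12.3-fold (10.1 to 14.9). Its fall came a step after that of DNMT3B.

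TET2 (ENSG00000168769.13, chromosome 4, 105145875 to 105279816, plus strand) was higher in each later library. It was at 0.318 FPKM in BC1 (0.243 to 0.414), 0.863 FPKM in the APLNR+ cells (0.739 to 1.004), 2.93 FPKM in the HEPs (2.70 to 3.16) and 4.71 FPKM in the HPCs (4.41 to 5.02). BC1 was the lowest library and CD43+ the highest, and no intervals overlapped. The steps were 2.71-fold (1.99 to 3.70), 3.40-fold (2.86 to 4.04) and 1.61-fold (1.45 to 1.78), and the rise over the whole path was 14.8-fold (11.3 to 19.5). The antisense gene TET2-AS1 was listed at 0 in each library.

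TET3 (ENSG00000187605.15, chromosome 2, 73986404 to 74108176, plus strand) alternated between 2 levels. It was at 4.76 FPKM in BC1, 7.89 FPKM in the APLNR+ cells, 4.50 FPKM in the HEPs and 7.33 FPKM in the HPCs. BC1 could not be told from CD31+CD34+ by counting, nor APLNR+ from CD43+. The 3 steps were a 1.66-fold difference upward (1.52 to 1.81), 1.75-fold downward (1.61 to 1.91) and 1.63-fold upward (1.49 to 1.78).

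The summed FPKM of the 3 TET genes was 12.4, 16.8, 9.44 and 12.6 in the order of differentiation, so BC1 and CD43+ were nearly equal in the sum. Within it, TET1 took 59.1% in BC1 (56.9 to 61.2), 47.9% in APLNR+ (46.1 to 49.7), 21.4% in CD31+CD34+ (19.6 to 23.2) and 4.72% in CD43+ (3.91 to 5.64). TET2 took 2.56% in BC1 (1.95 to 3.30), 5.13% in APLNR+ (4.41 to 5.94), 31.0% in CD31+CD34+ (28.99 to 33.1) and 37.2% in CD43+ (35.3 to 39.2). TET1 exceeded TET2 23.1-fold in BC1 (17.7 to 30.5), and in CD43+ the ratio of TET1 to TET2 was 0.127 (0.104 to 0.154). The pair changed places between APLNR+ and CD31+CD34+. TET3 was the most abundant TET gene in CD31+CD34+ and CD43+, with 47.6% and 58.0%. These shares do not depend on how the libraries are scaled.

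**Figure D3:**
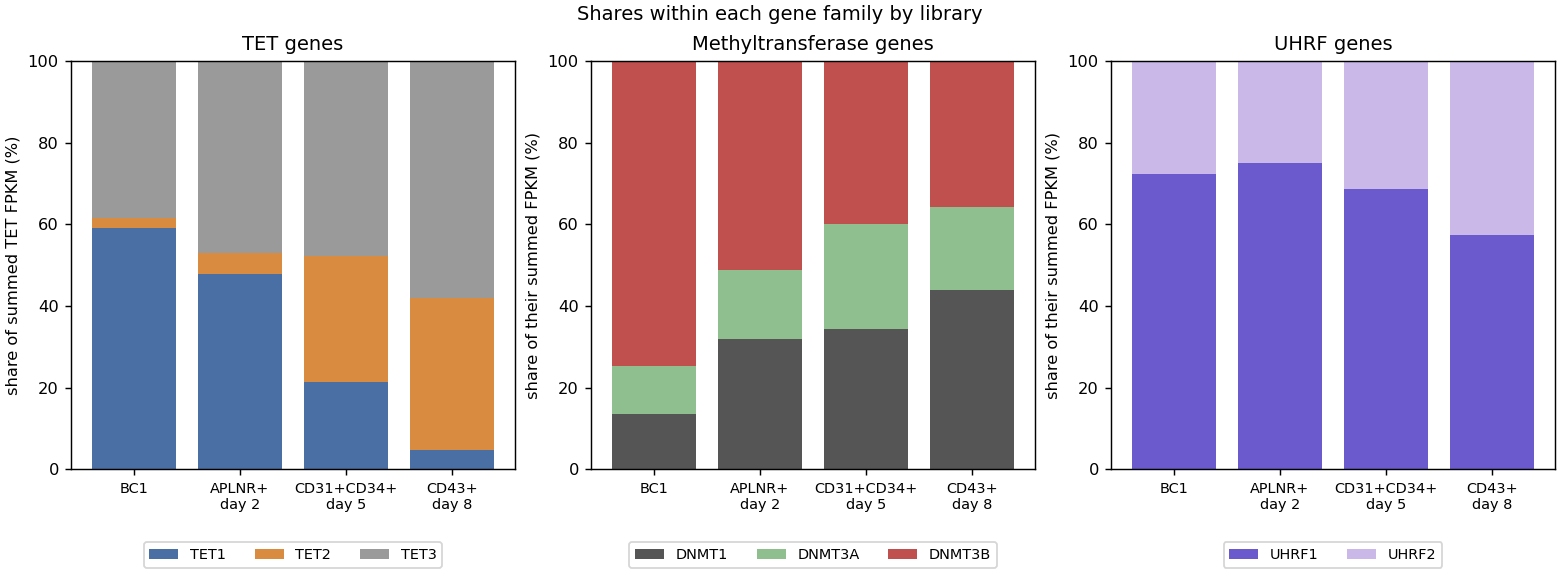
Share of each gene in the summed FPKM of its family, in percent and by library, for the 3 TET genes (left), DNMT1, DNMT3A and DNMT3B (middle) and the UHRF pair (right), with 1 library per bar. TET1 shrinks from 59.1% to 4.72% as TET2 grows from 2.56% to 37.2%, and DNMT1 grows from 13.5% to 44.0% of the methyltransferase transcripts.

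TDG (ENSG00000139372.14, chromosome 12, 103965804 to 103988874, plus strand), the glycosylase that completes removal, was at 21.8 FPKM in BC1 (19.9 to 23.9), 26.6 FPKM in the APLNR+ cells (24.6 to 28.8), 12.5 FPKM in the HEPs (11.1 to 13.9) and 18.1 FPKM in the HPCs (16.4 to 19.9). APLNR+ was the highest library and CD31+CD34+ the lowest. TDG fell 2.14-fold between them (1.87 to 2.45), -1.04 on the log2(FPKM + 1) scale, which is just past the call. Its processed copy TDGP1 was at 0.289 FPKM or less, but how fragments were divided between TDG and its copies is uncertain.

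Counted over the family, few members changed by at least 1 on the log2(FPKM + 1) scale at a step. DNMT3L, at 0 throughout, did not pass the filter of 1 FPKM in at least 1 library, and the other 9 genes did. From BC1 to APLNR+, 1 of the 9 changed, DNMT3B, which fell. Of all 17137 genes that passed the filter, 18.5% changed by this much, 9.15% upward and 9.32% downward. From APLNR+ to CD31+CD34+, 3 changed: TET1 and TDG fell and TET2 rose, against 24.4% of all genes, 13.0% upward and 11.4% downward. From CD31+CD34+ to CD43+ none of the 9 changed, against 21.2% of all genes, 7.63% upward and 13.5% downward. From BC1 to CD43+, TET2 rose and DNMT3B and TET1 fell, against 34.0% of all genes, 15.2% upward and 18.9% downward. With so few genes such counts lie near the background, and consecutive steps share a library. The call of TET2 from APLNR+ to CD31+CD34+ was lost when libraries were scaled to their upper quartile (0.99), while that scaling added the fall of DNMT3A from BC1 to APLNR+ (-1.05). A pseudocount of 0.1 in place of 1 added a rise of TET2 from BC1 to APLNR+ (1.20) and a fall of TET1 from CD31+CD34+ to CD43+ (-1.60).

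Over all 4 libraries, 4 of the 9 members spanned at least 1, as did 57.6% of all genes that passed the filter. The spans were 2.78 for DNMT3B, 2.50 for TET1, 2.11 for TET2 and 1.04 for TDG, and from 0.59 (DNMT1) to 0.95 (DNMT3A) for the others. DNMT3B, TET1 and TET2 spanned more than 88.4%, 85.8% and 80.6% of the genes, whereas DNMT1 exceeded only 17.5%. None of the 9 members was highest in CD31+CD34+, where 25.5% of all genes were highest. Of the 9, 4 (DNMT1, DNMT3B, TET3 and TDG) had their lowest value there, as did 18.2% of all genes, but TET3 was not apart from BC1 by counting and DNMT3B was not lowest there when libraries were scaled to the same total.

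**Figure D4:**
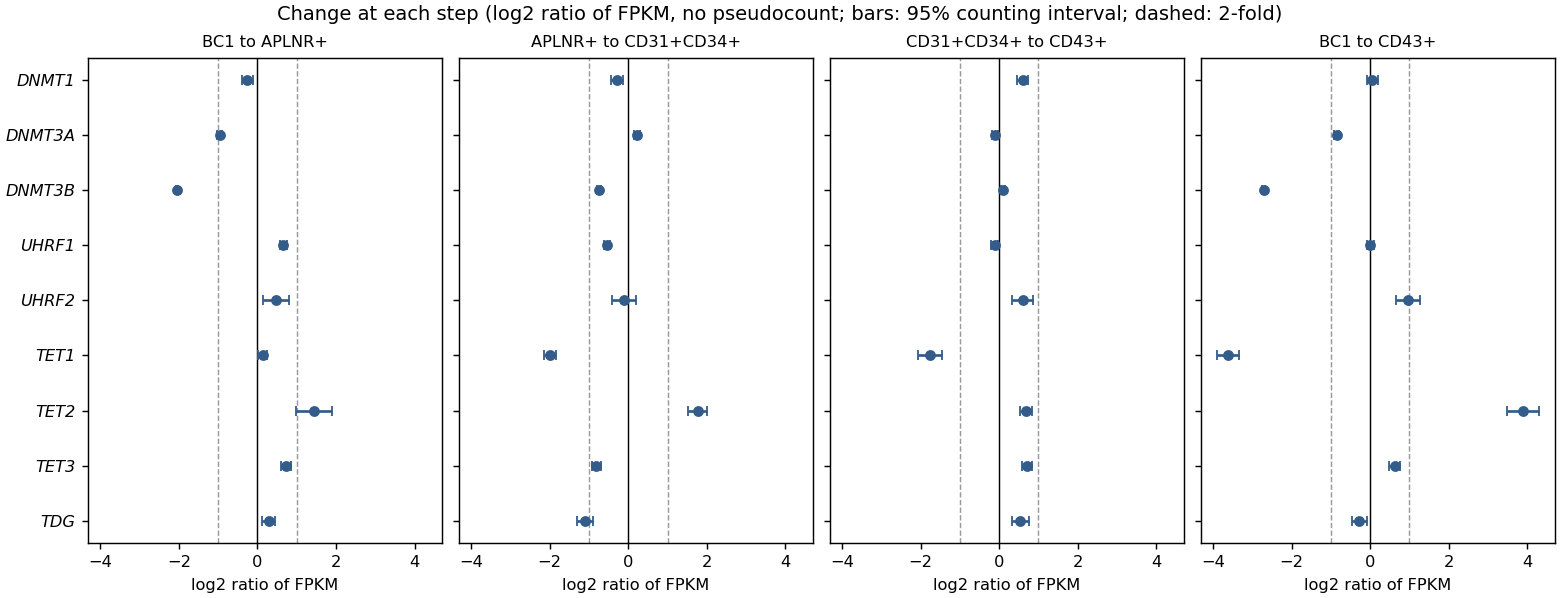
log2 ratio of FPKM for 9 genes at the 3 consecutive steps and from BC1 to CD43+, without a pseudocount, with bars for the 95% counting interval and dashed lines at a 2-fold change. TET1 and TET2 lie farthest from 0 in the last panel, at 12.3-fold lower and 14.8-fold higher, and DNMT1 and UHRF1 lie near 0.

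Within a library, levels per length can be ordered. DNMT3B led in BC1, APLNR+ and CD31+CD34+, and DNMT1 led in CD43+ with 96.6 FPKM against 78.7 FPKM for DNMT3B. The TET genes were the lowest genes above 0 in every library. Neighbours in this order were apart beyond their counting intervals, except TET1 and TET3 in APLNR+ (8.05 and 7.89 FPKM) and UHRF2 and TDG in CD31+CD34+ (15.7 and 12.5 FPKM). With the longest transcript length, UHRF2 (14.8 to 16.6) and TDG (11.6 to 13.3) in CD31+CD34+ were apart as well. The summed FPKM of DNMT3A and DNMT3B was 47.8 times that of the 3 TET genes in BC1 (45.7 to 49.9), 9.84 times in APLNR+ (9.46 to 10.2), 12.9 times in CD31+CD34+ (12.3 to 13.6) and 9.74 times in CD43+ (9.31 to 10.2). Most of the drop in this ratio came at the first step. The share of DNMT1 in the 3 catalytic methyltransferase genes was 13.5% in BC1 (12.8 to 14.3), 31.9% in APLNR+ (30.3 to 33.5), 34.3% in CD31+CD34+ (32.6 to 36.1) and 44.0% in CD43+ (42.3 to 45.6).

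Genes that work with these enzymes were followed as lists, with the same call and the same percentages over all genes as background. Among 14 partners of maintenance methylation, none changed by at least 1 from BC1 to APLNR+, 2 fell from APLNR+ to CD31+CD34+ and none changed from CD31+CD34+ to CD43+, with median changes of -0.16, -0.20 and 0.01 where the median of all genes changed by 0.00, 0.01 and -0.08. Of all genes, 18.5%, 24.4% and 21.2% changed by this much at these steps. Over the whole path 4 of the 14 fell and 0 rose, where 18.9% of all genes fell and 15.2% rose. HELLS, a chromatin remodeler needed for normal DNA methylation, went from 105 FPKM in BC1 to 59.8, 36.5 and 29.8 FPKM. CDCA7L, a relative of the HELLS cofactor CDCA7, fell from 30.6 FPKM in the APLNR+ cells to 5.20 FPKM in the HEPs.

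Of the 21 genes of base excision repair and active demethylation, 18 passed the filter. At the 3 consecutive steps 4, 1 and 2 of them rose and 1, 4 and 0 fell, with median changes of 0.08, -0.15 and -0.11. Of all genes, 9.15%, 13.0% and 7.63% rose and 9.32%, 11.4% and 13.5% fell at these steps. GADD45A, a stress response gene proposed to promote demethylation, was at 13.7 FPKM in BC1 and at 144, 155 and 194 FPKM in the other libraries. GADD45B peaked in APLNR+ at 32.8 FPKM, from 5.74 FPKM in BC1, and was at 1.91 FPKM in the HEPs. UNG, a glycosylase that removes uracil, fell from 84.5 FPKM in BC1 to 39.8 FPKM in the APLNR+ cells and was at 18.7 FPKM in the HEPs.

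Among the genes that supply or modulate TET enzymes, 10 of the 13 in the table passed the filter. At the 3 steps 0, 2 and 1 of the 10 rose and 1, 1 and 1 fell, with medians of -0.13, 0.06 and 0.28. Here too, 9.15%, 13.0% and 7.63% of all genes rose and 9.32%, 11.4% and 13.5% fell. IDH1, which makes the 2-oxoglutarate that TET enzymes consume, fell from 134 FPKM in the APLNR+ cells to 34.4 FPKM in the HEPs. IDH2, which makes the same compound in mitochondria and was named after its values were seen, was at 34.4, 41.4, 72.5 and 84.4 FPKM in the order of differentiation. OGT, the sugar transferase that binds TET proteins, rose from 27.6 FPKM in the APLNR+ cells to 75.3 FPKM in the HEPs and was at 141 FPKM in the HPCs. SPI1, the blood transcription factor PU.1, rose from 1.12 FPKM in the APLNR+ cells to 32.0 FPKM in the HEPs and 104 FPKM in the HPCs.

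Germline genes that promoter methylation is known to silence gave no broad signal. Only 3 of the 28 passed the filter, and the summed level of the 28 was 5.29, 3.91, 0.952 and 0.685 FPKM in the order of differentiation, with 11, 16, 19 and 21 of them listed at 0.

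The genes with the most similar profiles were found by the root mean squared difference of log2(FPKM + 1), centred on each gene's mean over the 4 libraries, among 11040 protein-coding genes with at least 5 FPKM in some library. The 4 points give many near matches, so the names describe these libraries only. For DNMT3B the nearest were AP1S3, ESPN and MTCL1, at differences of 0.05, 0.08 and 0.08. For TET1 they were CNKSR1, GPT2 and CASC10, at 0.04, 0.08 and 0.10. For TET2 they were MAVS, ZNF428 and EHD3, at 0.06, 0.10 and 0.10, of which MAVS went from 8.05 to 11.0, 25.1 and 39.8 FPKM. For TDG they were RNF138, NBN and MICAL1, at 0.01, 0.02 and 0.04.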

How the data were processed

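Total RNA of 4 populations was sequenced, with 1 library each. The authors deposited a table of FPKM values per gene, and the submitters' processing notes name BWA, Bowtie, RSEM and hg19 without their roles, whereas 55587 of the 55605 gene identifiers shared with GENCODE release 29 had its GRCh38 position. The strand setting is not given in the sources used here. Rows sharing an identifier were summed, which touched 90 identifiers and 0 members. Changes are differences of log2(FPKM + 1) among 17137 genes with at least 1 FPKM in some library, called at 1 or more, and fold values use FPKM alone. Depth came from the steps between low values (84.2% to 85.9% of them whole within 0.1 fragments). Fragments were derived with the median length of protein-coding transcripts. They gave exact Poisson 95% intervals for levels and exact Clopper-Pearson 95% intervals for folds, shares and ratios. These intervals and the floor of 3 fragments are for counting error only. DNMT1 and UHRF2 have short median lengths (738 and 802 bases), which widens their intervals. The 10 members and the lists were chosen with earlier results of these data known. All members are described. From each list at most the 2 largest rises and the 2 largest falls per step among genes that reached 5 FPKM in either library may be named, and for members spanning at least 1 the 3 most similar genes. The sorting markers, POU5F1, SOX2, NANOG, MKI67, PCNA and MCM2 are named as checks. Python 3.11.15, numpy 2.4.6, scipy 1.17.1, pandas 2.3.3 and matplotlib 3.10.9 were used, and the calculation was tested on simulated data. Alternatives were the pseudocount, the call size, the scaling, the filter, the row kept per identifier and the transcript length.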

Additional observations from a re-analysis of the deposited data

How the results depend on the processing

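With 1 library per population, no value has a replicate check, and neither leaving out a library nor a test was possible. No paired analysis was possible because each population had 1 library. Gene-level FPKM does not separate transcript starts, and intervals cover counting error only. Of 900 values recomputed under the alternatives, 771 stayed on their side of the call, within the counting interval or within 1.5 times, and 0 called changes reversed. Part of these could not differ, so the count is no measure of robustness. Dropping the filter adds no gene able to reach the call, and the row kept touched 0 members. Shares of FPKM do not use the transcript length. Of 320 recomputed member changes, 6 took the other sign, and 0 of these were called. Only the scaling settings could turn a sign, and all 6 came from them. Most of the 320 were therefore fixed in sign beforehand. From CD31+CD34+ to CD43+, size-factor scaling turned DNMT3A (-0.11 to 0.03) and UHRF1 (-0.11 to 0.03), and equal totals turned DNMT3B (0.09 to -0.03). From BC1 to CD43+, UHRF1 became 0.09 with size factors, and DNMT1 went from 0.06 to -0.01 with equal totals and to -0.10 with the upper quartile. Among the members, a pseudocount of 0.1 gave 1 rise from BC1 to APLNR+ and 1 fall from CD31+CD34+ to CD43+. At a call size of 2, the second step had 0 rises and 0 falls. At a call size of 0.5, the first step had 2 rises and 2 falls, the second 1 rise and 5 falls, the third 5 rises and 1 fall, and the whole path 3 rises and 3 falls. Size-factor scaling gave 2 rises from BC1 to CD43+, the added one being UHRF2 (1.003). Upper-quartile scaling gave 2 falls at the first step and 0 rises at the second. A filter of 5 FPKM removed TET2, leaving 0 rises at the second step and 0 over the whole path. In the related lists, a call size of 2 gave 3 rises and 6 falls at the first step, 1 and 8 at the second, 1 and 1 at the third, and 4 and 13 over the whole path, and a call size of 0.5 gave 23 and 33, 18 and 58, 27 and 19, and 33 and 58. Size-factor scaling gave 16 list rises from CD31+CD34+ to CD43+, where 10 rises and 8 falls were counted without it and 8 rises and 10 falls with equal totals. The median change of all genes was -0.17 from CD31+CD34+ to CD43+ and -0.12 from BC1 to CD43+ when totals were made equal, and -0.20 from BC1 to CD43+ under the upper quartile.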

Other observations

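Transcripts of 11 genes, listed as readers of methylated DNA or as relatives of such readers, were followed, and all 11 passed the filter. Whether each product binds methylated DNA was not examined. From BC1 to CD43+, 3 rose and 1 fell, where 15.2% of all genes rose and 18.9% fell, so the count lies near the background. The median change was 0.53 against -0.06 over all genes. MBD1 went from 27.0 to 63.0 FPKM, MBD6 from 12.9 to 45.0 FPKM and ZBTB38 from 4.20 to 12.4 FPKM, while ZBTB24, whose loss is known to disturb centromeric methylation, went from 5.25 to 1.89 FPKM.

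Genes of the metabolism around S-adenosylmethionine, the methyl donor of the DNMT enzymes, and of folate were mixed. The list is not limited to genes that raise its supply. Of the 19 that passed the filter, 4 fell and 0 rose from APLNR+ to CD31+CD34+ (median -0.40), where 11.4% of all genes fell, and at the next step 3 rose with 0 falls (median 0.20), where 7.63% of all genes rose. The list was not tested. TYMS, which makes thymidylate and not S-adenosylmethionine, was at 46.4, 62.4, 123 and 112 FPKM in the order of differentiation and was highest in CD31+CD34+. MTHFD1, an enzyme of folate metabolism, was at 134, 77.1, 28.7 and 56.8 FPKM in the order of differentiation. Among genes of imprint protection and CpG island binding, 11 of 16 passed the filter, and 1 rose and 2 fell from BC1 to CD43+ (median -0.33). In the list of 26 reference genes, 1 rose and 1 fell over the same path (median 0.16). Over this path 15.2% of all genes rose and 18.9% fell.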
